A study of Mus musculus with 12 samples.

Results

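The Slc25 genes encode the mitochondrial carrier family, most of whose proteins move metabolites, nucleotides, cofactors and ions across the inner mitochondrial membrane. Members were all protein-coding mouse genes on chromosomes 1 to 19 whose symbol begins with Slc25a, with Slc25a20 left out. This choice by symbol took 42 of the 20665 protein-coding genes on those chromosomes. The 41 with an entry of any peak list within 100 kb are described, and 1 is not analysed here. For each gene the locus was its body plus 10 kb on each side, and the value was the length covered there by peaks of H3K27ac, the acetylation of histone H3 that marks active promoters and enhancers.

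H3K27ac had been mapped by ChIP-seq in whole hearts of newborn mice at postnatal day 0. The 3 edKO hearts (numbered 1, 3 and 6) came from newborns lacking both RXRa and RXRb (RXRab-/-) in cardiomyocytes alone, and the 3 WT hearts (1, 3 and 4) from wild-type newborns. RXRs are nuclear receptors and pair on DNA with the PPARs and with other receptors. The driver of the deletion is not given in the sources used here, and the other cells of an edKO heart keep both genes. All hearts were fixed with DSG and then formaldehyde (FA), and each was a biological replicate with a peak list of its own, per the labels.

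Sequencing depth per heart is unknown, so intervals for counting error could not be given. The lists held 47972, 48275 and 67708 distinct regions in edKO hearts 1, 3 and 6, against 57977, 62883 and 66329 in WT hearts 1, 3 and 4. They covered 66.6, 47.9 and 62.6 Mb in the edKO hearts, against 67.4, 68.3 and 59.1 Mb in the WT hearts. The list of edKO 3 was thus the shortest in covered length. All 8 cardiomyocyte markers examined (Myh6, Myh7, Actc1, Tnnt2, Tnni3, Ttn, Ryr2 and Pln) carried called peaks. Their summed length was 177543, 132199 and 179112 bp in the edKO hearts, against 174941, 172992 and 170911 bp in the WT hearts. Summed lengths at 6 endothelial markers ran from 36195 to 60150 bp in edKO hearts, against 46821 to 58771 bp in WT hearts, and at 6 fibroblast markers from 32835 to 37451 bp in edKO hearts, against 23358 to 45707 bp in WT hearts. At 4 smooth muscle markers they ran from 6835 to 12325 bp in edKO hearts, against 6053 to 12052 bp in WT hearts. Of 4 leukocyte markers only Cd68 had peaks in every heart, with 4709, 4027 and 4568 bp in the edKO hearts, against 4647, 4432 and 4267 bp in the WT hearts. Csf1r had peaks in WT 3 and WT 4 alone, and Ptprc and Adgre1 in no heart. The genotypes overlapped in the endothelial, fibroblast and smooth muscle sums and at Cd68. In centred log2 length, as tested below, median differences (edKO minus WT) were -0.05 at cardiomyocyte and 0.11 at endothelial markers. They were 0.18 at fibroblast and 0.34 at smooth muscle markers, and 0 of them passed that test. Of 8 erythroid markers, Hba-a1, Hba-a2, Hbb-bt and Hbb-bs had no called peak in any heart. Ddx4 and Prm1, markers of tissues outside the heart, had peaks in every heart. Whether cell make-up differed was not tested.

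A carrier is a single chain folded around a central substrate site, which opens by turns to either side of the inner membrane. Through these carriers the heart exports the ATP made by oxidative phosphorylation, takes up the phosphate and ADP to make it, and runs the malate-aspartate shuttle that brings the electrons of glycolytic NADH into mitochondria. Several members are restricted to other tissues, such as the testis adenine nucleotide carrier Slc25a31.

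The promoters of 4 members are shown, chosen by the values of their loci. Slc25a42 and Slc25a34 had the lowest edKO values relative to WT, Slc25a4 had the largest covered share of its locus, and Slc25a31 had no called peak. Each runs from 250 bases before to 50 bases after an annotated start, on the transcribed strand, from RefSeq (GRCm38.p6, the same build as mm10). Capitals mark the nuclear receptor core motif AGGTCA, the CCAAT box and the GC box GGGCGG, each on either strand.
Slc25a42, chr8:70212232-70212531, minus strand: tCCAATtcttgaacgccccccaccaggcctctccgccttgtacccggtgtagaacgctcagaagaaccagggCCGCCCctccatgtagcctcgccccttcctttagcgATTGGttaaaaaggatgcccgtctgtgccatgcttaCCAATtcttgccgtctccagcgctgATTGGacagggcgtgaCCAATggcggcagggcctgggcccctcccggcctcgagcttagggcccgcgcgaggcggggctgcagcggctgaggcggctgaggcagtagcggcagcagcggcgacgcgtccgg
Slc25a34, chr4:141623785-141624084, minus strand: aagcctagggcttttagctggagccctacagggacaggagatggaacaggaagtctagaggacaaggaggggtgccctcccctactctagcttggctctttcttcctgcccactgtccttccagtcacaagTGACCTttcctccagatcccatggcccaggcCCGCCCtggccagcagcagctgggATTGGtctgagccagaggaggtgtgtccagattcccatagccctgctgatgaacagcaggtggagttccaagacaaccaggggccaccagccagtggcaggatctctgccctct
Slc25a4, chr8:46211013-46211312, minus strand: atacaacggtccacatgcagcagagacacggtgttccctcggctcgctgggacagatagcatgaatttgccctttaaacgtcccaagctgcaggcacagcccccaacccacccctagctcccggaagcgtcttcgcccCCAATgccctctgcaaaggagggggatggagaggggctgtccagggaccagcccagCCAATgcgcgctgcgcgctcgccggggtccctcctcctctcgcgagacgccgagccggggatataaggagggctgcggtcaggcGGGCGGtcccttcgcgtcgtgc
Slc25a31, chr3:40708621-40708920, plus strand: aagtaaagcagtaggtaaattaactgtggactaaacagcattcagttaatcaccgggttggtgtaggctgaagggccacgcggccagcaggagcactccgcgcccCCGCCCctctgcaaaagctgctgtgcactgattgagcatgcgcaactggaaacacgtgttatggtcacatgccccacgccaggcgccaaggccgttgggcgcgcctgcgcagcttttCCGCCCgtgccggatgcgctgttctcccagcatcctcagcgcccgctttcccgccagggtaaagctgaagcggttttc
The Slc25a42 window holds 5 CCAAT boxes and 26 CG dinucleotides. The Slc25a34 window holds 1 CG dinucleotide and 1 AGGTCA, on the opposite strand.

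Most carriers were marked in newborn heart. A called region lay at 37 of the 41 members in all 6 hearts (90.2%), against 66.1% of protein-coding genes on the same chromosomes and 76.1% of the 17970 that, like these members, have an entry within 100 kb. Such a region can lie outside the gene, and over the gene body alone 34 members had one in all WT hearts. No region was called in any heart at 3 members (7.32%), against 26.5% of genes and 15.4% of those with an entry within 100 kb. Over all 42 members by symbol the shares would be 88.1% and 9.52%. The comparisons over 42 members and over genes with an entry nearby were chosen after seeing the data. The median over members of the mean covered length was 2678 bp, against 1735 bp over all genes and 2186 bp over those with an entry within 100 kb. As a share of each locus, the median was 7.26% at the members, 3.38% over all genes and 4.41% over those with an entry within 100 kb.

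The members took 0.231%, 0.240% and 0.233% of the list length in edKO hearts 1, 3 and 6, against 0.230%, 0.229% and 0.244% in the WT hearts. The genotypes overlapped in this share. These are descriptions, since members were not drawn as a sample of genes.

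**Figure D1:**
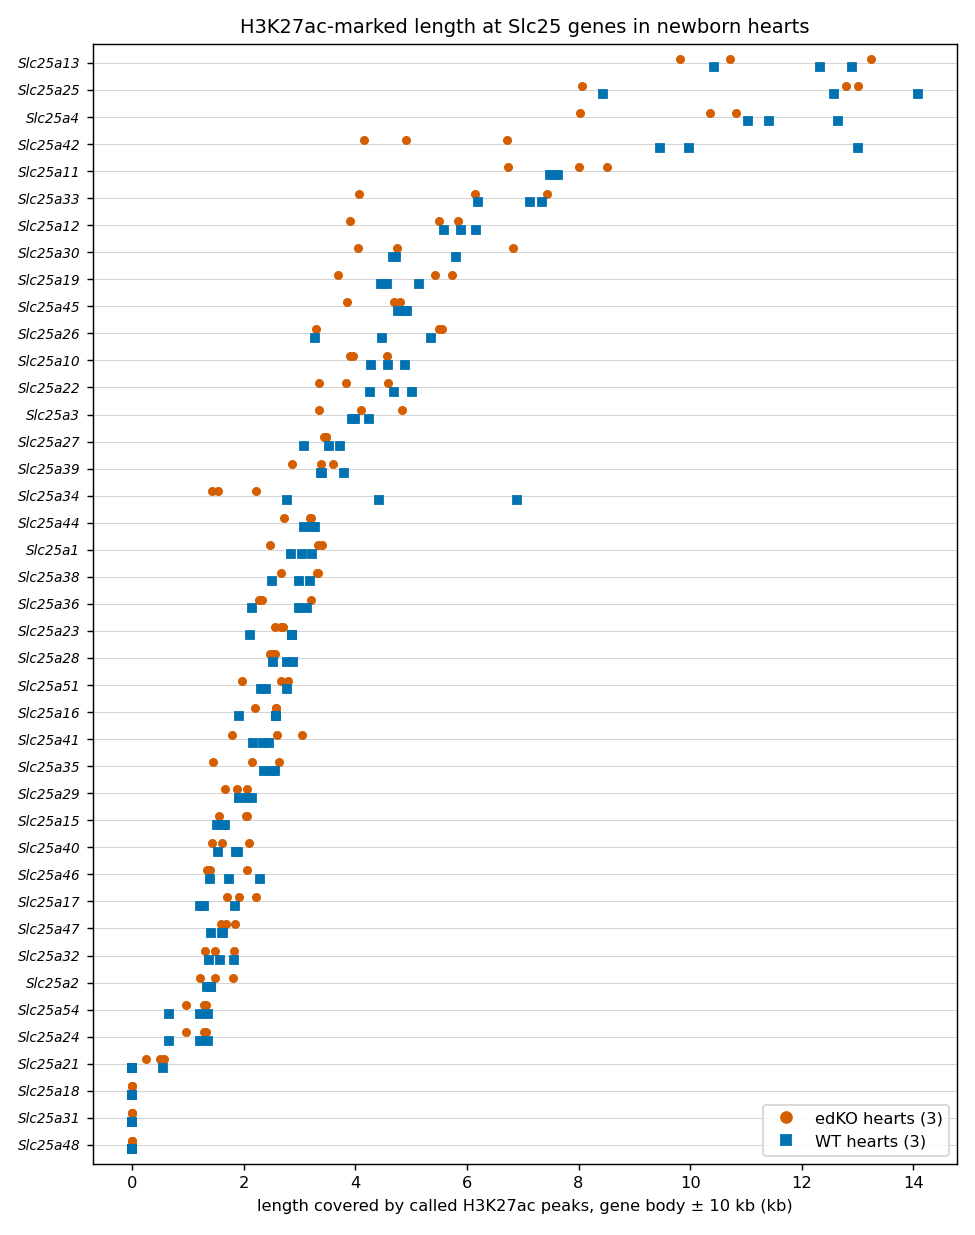
Length covered by called H3K27ac peaks (kb, x axis) within the body and 10 kb on each side of each of the 41 members (rows, ordered by mean length). Each orange circle is 1 edKO heart and each blue square 1 WT heart, and 3 members lie at 0 in every heart. At Slc25a42 and Slc25a34 every edKO heart lies to the left of every WT heart.

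The most densely marked locus was that of Slc25a4, the ADP/ATP carrier ANT1 of heart and muscle (chromosome 8, 46207168 to 46211062). Peaks covered 40.7% ± 6.27 of its locus in edKO hearts and 49.0% ± 3.51 in WT hearts (mean ± SD, n = 3 each). Slc25a11, the oxoglutarate carrier of the malate-aspartate shuttle, was covered over 33.0% ± 3.91 in edKO hearts and 32.1% ± 0.297 in WT hearts. Its locus also holds parts of Gp1ba, Rnf167, Pfn1 and Eno3, so the length is not that of Slc25a11 alone. The phosphate carrier Slc25a3 was covered over 14.9% ± 2.72 in edKO hearts and 14.8% ± 0.605 in WT hearts.

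Length in base pairs depends on the size of the gene as well. The longest covered lengths were at Slc25a13 (citrin, a liver-type aspartate/glutamate carrier), with 13235, 9823 and 10720 bp in the edKO hearts, against 12903, 12323 and 10434 bp in the WT hearts. That is 5.74% ± 0.902 of a locus of 196087 bp in edKO hearts and 6.06% ± 0.658 in WT hearts. Slc25a25, a calcium-regulated ATP-Mg/phosphate carrier, had 13014, 8064 and 12786 bp in the edKO hearts, against 12580, 14085 and 8442 bp in the WT hearts. At both genes the genotypes overlapped, and single hearts of either genotype lay near the bottom of the range.

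The members without any called region were Slc25a31, Slc25a18 (a glutamate carrier) and Slc25a48. Slc25a31 encodes ANT4, the ADP/ATP carrier of male germ cells. At Slc25a21, the oxodicarboxylate carrier, peaks covered 577, 249 and 507 bp in the edKO hearts, against 546, 0 and 0 bp in the WT hearts. That locus spans 504839 bp and fell under the minimum of 500 bp for a test. The fold of its strongest peak lay at percentiles 21.3, 12.1 and 6.30 within the lists of the edKO hearts, and at 15.7 in WT 1, the lowest of the family. A region missing from a list was not called at that heart's depth, which does not show that the mark was absent.

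Some neighbours share their values. Slc25a24, an ATP-Mg/phosphate carrier, and the adjacent Slc25a54 had the same peaks, with 1284, 958 and 1333 bp in the edKO hearts, against 1355, 1216 and 670 bp in the WT hearts. The start of Slc25a24 was called in all 6 hearts and that of Slc25a54 in none. Slc25a23 and Slc25a41 lie partly within each other's window, but no called region was shared between them. Only 9 members had no other gene body in their window.

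Annotated starts were examined next. Of the members, 31 have a start in the promoter table. The start was called in all 6 hearts at 25 of them (80.6%, against 52.4% of 16457 genes) and in no heart at 6 (19.4%, against 40.8%). The gene shares here include genes with no entry within 100 kb. No member had its start called in some hearts only. The 6 were Slc25a18, Slc25a21, Slc25a31, Slc25a47, Slc25a48 and Slc25a54. Slc25a47, described as a carrier of liver, had 1685, 1597 and 1847 bp in the edKO hearts, against 1635, 1613 and 1420 bp in the WT hearts. All of that length lay outside the gene, at least 7079 bp past its end, in a window that also holds part of Wars. The peaks therefore cannot be assigned to Slc25a47.

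Called starts had more CpG by the median. The observed to expected CpG ratio of the 300-base window had a median of 0.792 at the 25 called starts and 0.439 at the 6 that were not called, against 0.582 over all genes. The ranges overlapped, from 0.0384 to 1.11 for called starts and from 0.220 to 0.826 for the others. Slc25a31 had the ratio of 0.826, higher than that of many called starts. Slc25a34 had the lowest ratio of the called starts, and 4.82% of genes had a ratio as low or lower.

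**Figure D2:**
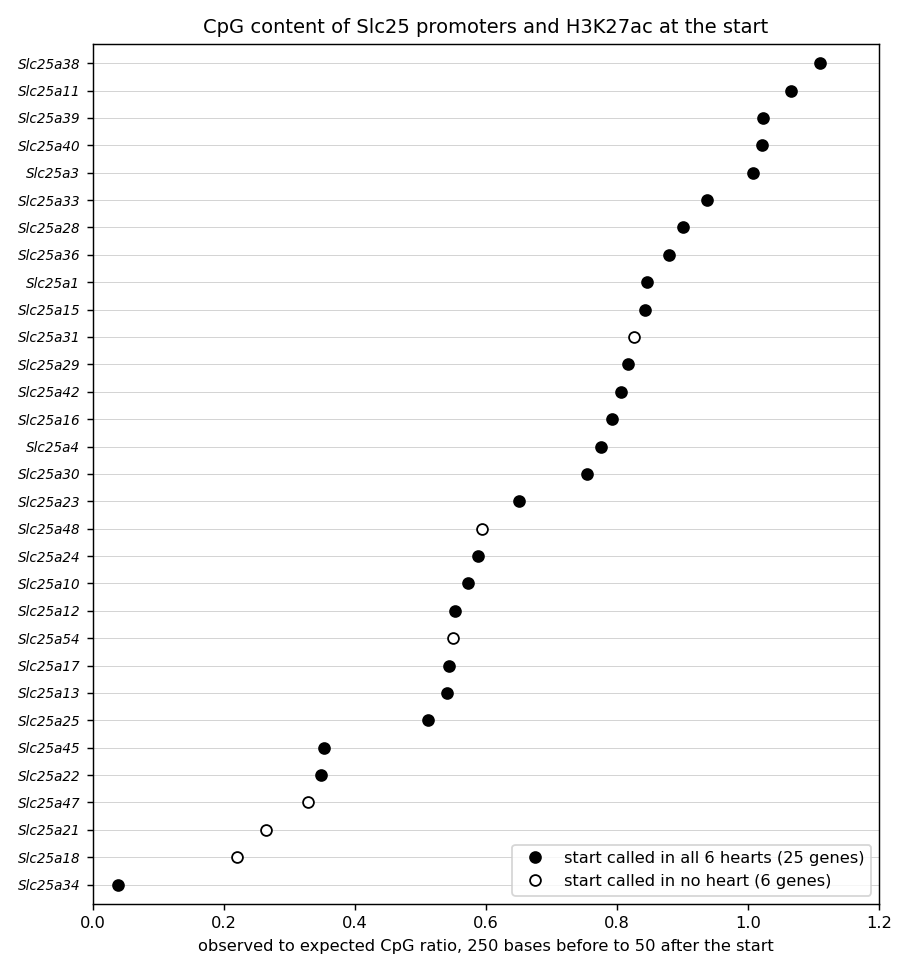
Observed to expected CpG ratio (x axis) of the promoter window of the 31 members with an annotated start (rows, ordered by ratio; the mean is shown where a gene has several starts). Filled circles are the 25 starts called in all 6 hearts and open circles the 6 called in none. Slc25a34 is filled and lies at the far left (0.0384), and Slc25a31 is open and lies among the filled circles (0.826).

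Motif letters were counted on both strands of 38 start windows of the members, beside 20085 windows of all genes. AGGTCA lay at 4 members (Slc25a34, Slc25a39, Slc25a45 and Slc25a47), and 14.7% of all windows hold it. A direct repeat of AGGTCA with 1 base between, to which RXR binds with a PPAR partner, was in no member's window and in 0.0448% of all windows. TCAAGGTCA, which contains AGGTCA and is bound by the ERR receptors, was in no member's window and in 0.339% of all windows. GGGCGG lay in 30 of the members' windows (47.0% of all windows) and CCAAT in 21 (38.1%). These matches describe letters only and do not show binding.

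The strongest peak at most members ranked high within its list. The fold enrichment is the authors' own value and was ranked within each list alone. The median over marked members was percentile 93.5, 94.4 and 94.9 in edKO hearts 1, 3 and 6, against 94.0, 96.2 and 95.1 in WT hearts 1, 3 and 4. Over all genes with a peak it was 90.3, 89.9 and 93.1 in the edKO hearts, against 91.5, 92.6 and 92.8 in the WT hearts. The top of the family was Slc25a3, whose strongest peak lay at percentiles 98.3, 99.5 and 99.9 in the edKO hearts, against 99.97, 99.98 and 99.8 in the WT hearts. Lists of different lengths do not make such ranks comparable between hearts, so no change is read from them.

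**Figure D3:**
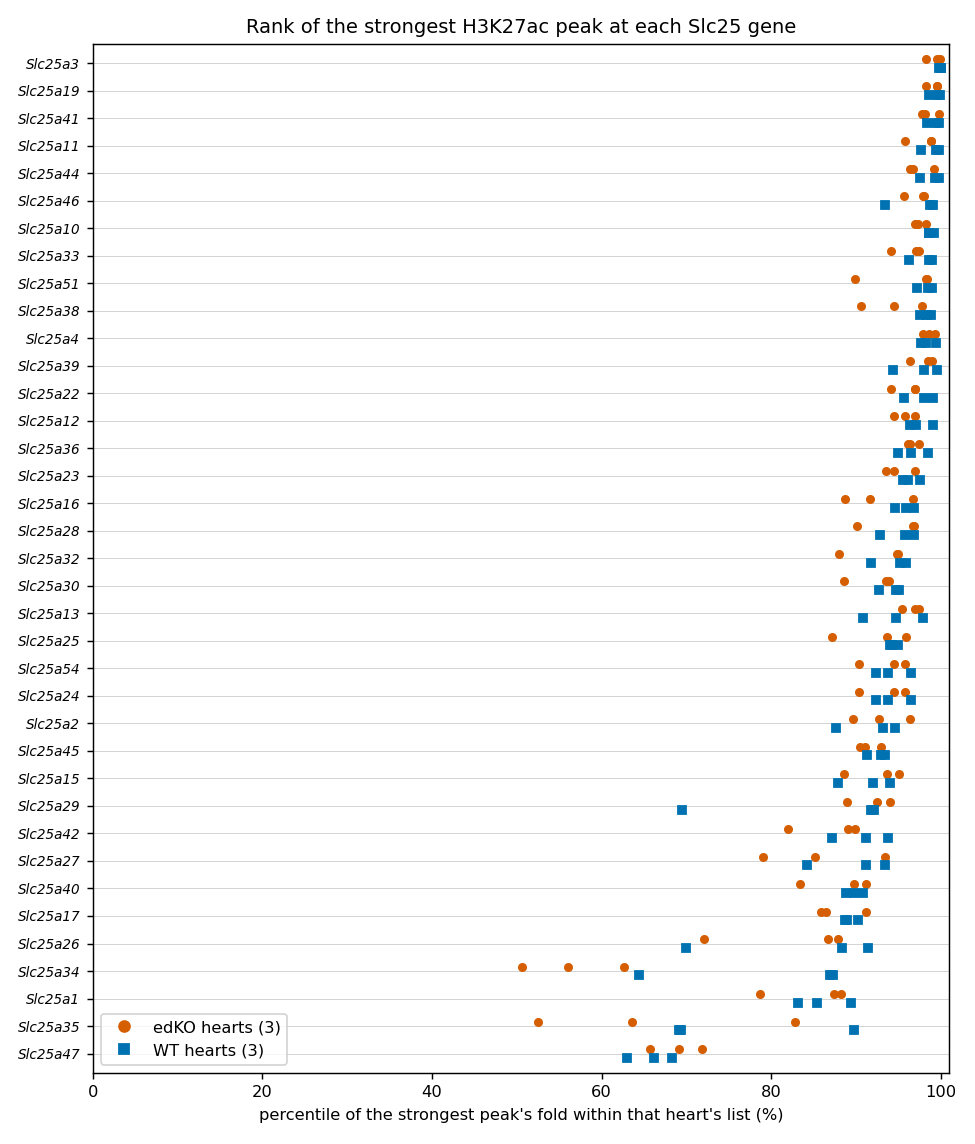
Percentile of the fold of each member's strongest peak within that heart's own list (x axis, %), for the 37 members with a called peak in all 6 hearts (rows). Orange circles are edKO hearts and blue squares WT hearts. Most members lie near the right end. Slc25a47 and Slc25a35 have the lowest WT medians, and Slc25a34 the lowest edKO median.

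Whether the loss of RXR in cardiomyocytes went with a different marked length at the carriers was then tested. Lengths were compared as log2(bp + 200), centred per heart, in limma over all 14317 loci with a mean of at least 500 bp, with Benjamini-Hochberg adjustment over all of them at a threshold of 0.05. Differences are edKO minus WT on this scale, on which sparsely covered loci show too small a change. Of the 37 members tested, 0 passed in either direction. Over all loci 0.105% passed as lower in edKO and 0% as higher. At an unadjusted p under 0.05, 2 members were lower (Slc25a42 and Slc25a34), where 4.63% of all loci were, and 2 were higher (Slc25a17 and Slc25a15), where 1.98% of all loci were.

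The family as a whole lay where all genes lay. The median difference was 0.03 over the 37 members and 0.03 over all loci. Of the members, 13 had a negative difference (35.1%), against 41.6% of all loci. Differences within 0.25 of 0 in either direction held for 33 members (89.2%), against 81.2% of all loci. Slc25a24 and Slc25a54, which have the same peaks, count as separate members here. In centred values, every edKO heart was below every WT heart at 4 members (Slc25a4, Slc25a12, Slc25a34 and Slc25a42), a pattern of 5.76% of all loci. Every edKO heart was above every WT heart at 3 (Slc25a15, Slc25a17 and Slc25a38), a pattern of 7.11% of all loci.

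**Figure D4:**
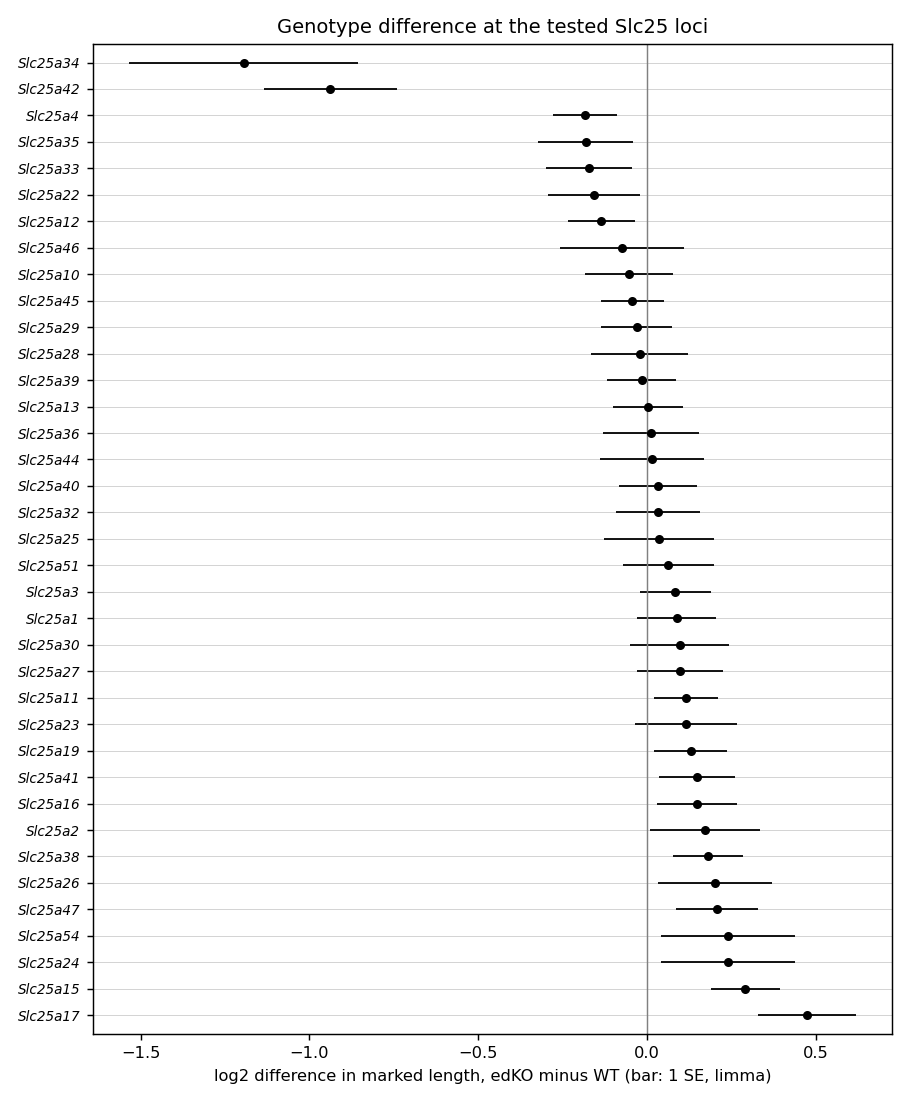
Difference in log2(covered bp + 200) between edKO and WT hearts (x axis, edKO minus WT, from limma) for the 37 members tested. Points are estimates and bars 1 SE, and the grey line marks 0. Slc25a34 (-1.19) and Slc25a42 (-0.94) stand apart at the left, and all other members lie between -0.18 and 0.47.

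Slc25a42, which carries coenzyme A into mitochondria, had the smallest p of the family (chromosome 8, 70184340 to 70212281). Its locus held 4915, 4163 and 6722 bp of called peaks in edKO hearts 1, 3 and 6, against 9467, 9986 and 13013 bp in WT hearts 1, 3 and 4. Every edKO heart lay below every WT heart, and the highest edKO value was 6722 bp, against a lowest WT value of 9467 bp. The difference was -0.94 (SE 0.197, limma unadjusted p = 0.0017, adjusted p = 0.237) and did not pass. It ranked 103rd of the 14317 loci by p. In whole hearts, fewer marked cells and a weaker mark per cell cannot be told apart.

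Most of that gap lay upstream of the gene and not at its promoter, shown above. The region over the start (chromosome 8, 70210015 to 70213898) was called in all hearts, with 2877, 2174 and 2987 bp in the edKO hearts, against 3502, 3595 and 3276 bp in the WT hearts. A second region inside the gene (70203919 to 70206113) had 2038, 1989 and 1475 bp in the edKO hearts, against 1599, 1508 and 1806 bp in the WT hearts. These 2 regions were called in both genotypes. Over the start every edKO heart had fewer bp than every WT heart, and at the second region the genotypes overlapped.

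Upstream, the region at 70214899 to 70217863 was not called in any edKO heart, and 2265, 2401 and 2851 bp of it were called in the WT hearts. It ends 2617 bp from the gene. Its strongest entry lay at percentiles 58.9, 61.6 and 86.2 of the WT lists. The next region (70218649 to 70221118) had 0, 0 and 590 bp in the edKO hearts, against 2101, 1421 and 2160 bp in the WT hearts. It reaches into the neighbouring gene Armc6 (70220172 to 70234446), so the peaks cannot be assigned to Slc25a42 rather than Armc6. The difference was -0.22 over the gene body alone, -0.58 with 5 kb on each side, -0.11 at the gene ends and -0.32 with regions assigned to the nearest gene only.

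Slc25a34, a carrier whose substrate is not settled, had the lowest difference of the family (chromosome 4, 141618819 to 141623891). Its locus held 1424, 1538 and 2219 bp in the edKO hearts, against 2781, 4425 and 6902 bp in the WT hearts. No edKO heart reached the lowest WT heart, and the WT hearts were spread widely, with WT 4 highest. The upstream part of the window holds part of the neighbouring gene Plekhm2 (141625732 to 141664146). In WT 4 alone, regions of 508, 255 and 934 bp were called there, and they cannot be assigned to Slc25a34 rather than Plekhm2. The difference was -1.19 (SE 0.339, limma unadjusted p = 0.0087, adjusted p = 0.448), and it was -0.83 without WT 4. It did not pass.

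The region over the start was shorter in edKO hearts at this gene too. The region at 141622639 to 141625624, over the CpG-poor promoter shown above, had 1083, 1014 and 1092 bp in the edKO hearts, against 1697, 2389 and 2846 bp in the WT hearts. Its strongest entry lay at percentiles 50.6, 22.7 and 62.6 of the edKO lists, against 64.4, 87.0 and 87.2 of the WT lists. A region past the gene's end (141617255 to 141618564) had 0, 0 and 1127 bp in the edKO hearts, against 1084, 1120 and 1065 bp in the WT hearts, and lies in Tmem82. In this region edKO 6 was as long as the WT hearts. Over the gene body alone the difference was -0.99, and with regions assigned to the nearest gene only it was -1.05.

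**Figure D5:**
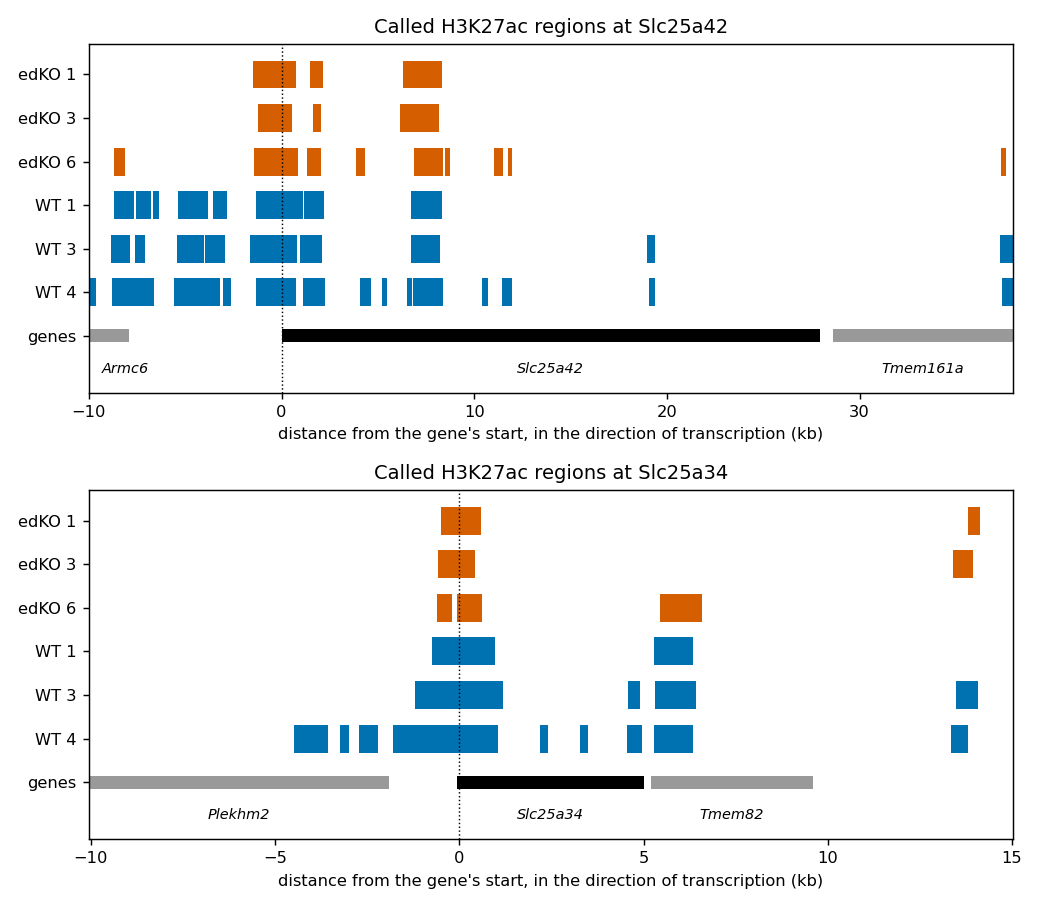
Called H3K27ac regions in each heart at Slc25a42 (top) and Slc25a34 (bottom), by distance from the gene's start in the direction of transcription (kb, x axis). Orange bars are edKO hearts, blue bars WT hearts, the black bar the gene and grey bars its neighbours. Upstream of the start region of Slc25a42 all WT hearts have bars, edKO 6 has 1 short bar and edKO 1 and 3 have none, and at Slc25a34 the bar over the start is longer in the WT hearts.

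Of 15 carriers of nucleotides, phosphate and cofactors tested, Slc25a42 included, 3 were negative and 12 positive, with a median of 0.08 and 0 past the threshold. All but Slc25a42 and Slc25a17 (13 of 15) lay within 0.25 of 0. Slc25a4 had 10822, 8024 and 10357 bp in the edKO hearts, against 12641, 11417 and 11037 bp in the WT hearts. The genotypes did not overlap, but WT 4 and edKO 1 lay close, and the difference of -0.18 (SE 0.095, limma adjusted p = 0.800) did not pass. The region over its start and body had 7032, 5747 and 7276 bp in the edKO hearts, against 7895, 7807 and 7352 bp in the WT hearts. Over the gene body alone the difference was -0.04.

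Slc25a17, the peroxisomal carrier of coenzyme A, FAD and NAD+, had the highest difference of the family. It had 2215, 1698 and 1916 bp in the edKO hearts, against 1212, 1847 and 1297 bp in the WT hearts. In base pairs edKO 3 lay below WT 3, and the genotypes separated only after centring. The region over its start had 1812, 1417 and 1916 bp in the edKO hearts, against 1212, 1847 and 1297 bp in the WT hearts. A region inside the gene (81326026 to 81326553) was called in edKO 1 and edKO 3 alone, with 403 and 281 bp. Its strongest entry lay at percentiles 15.8 and 3.48 of those lists. The difference of 0.47 (SE 0.145, limma adjusted p = 0.516) did not pass and was 0.23 at the gene ends. Slc25a3 had 4839, 3344 and 4106 bp in the edKO hearts, against 4250, 3935 and 4001 bp in the WT hearts, with a difference of 0.08 (SE 0.105, limma adjusted p = 0.892). The edKO values enclosed the WT values there.

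The carboxylate carriers showed no difference past the threshold, and all 3 tested lay between -0.05 and 0.11. They were Slc25a1 (citrate), Slc25a10 (dicarboxylates) and Slc25a11. Slc25a11 had 8514, 6729 and 8002 bp in the edKO hearts, against 7539, 7630 and 7493 bp in the WT hearts. Its 3 WT values lay within the span of the edKO values. With regions assigned to the nearest gene only, the difference of 0.11 turned to -0.13.

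Of 8 amino acid carriers tested, 0 passed, with a median of 0.01 and a range from -0.16 to 0.29. Slc25a15, an ornithine carrier of the urea cycle, had 2046, 1566 and 2057 bp in the edKO hearts, against 1660, 1633 and 1516 bp in the WT hearts. Only edKO 3 lay among the WT values, and the difference was 0.29 (SE 0.102, limma adjusted p = 0.623), or 0.14 at the gene ends. Slc25a12, the aspartate/glutamate carrier aralar of heart, muscle and brain, had 5844, 3906 and 5508 bp in the edKO hearts, against 6158, 5902 and 5582 bp in the WT hearts. Before centring edKO 1 lay above WT 4, and the difference of -0.14 (SE 0.0983, limma adjusted p = 0.858) turned to 0.01 with peaks of a −log10 q of at least 5 and to 0.06 with lists of equal length. Per length, peaks covered 4.48% ± 0.912 of the Slc25a12 locus in edKO hearts and 5.18% ± 0.254 in WT hearts (SD, n = 3 each).

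Slc25a38, which brings glycine into mitochondria for haem synthesis, had 3334, 2671 and 3309 bp in the edKO hearts, against 3193, 2983 and 2503 bp in the WT hearts. The genotypes overlapped in base pairs, and the difference was 0.18 (SE 0.104, limma adjusted p = 0.837). It turned to -0.01 at the gene ends.

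The 3 carriers of metals and glutathione lay between -0.02 and 0.03. Slc25a28 (mitoferrin 2), the iron importer of tissues outside the red cell lineage, had 2565, 2505 and 2475 bp in the edKO hearts, against 2523, 2769 and 2891 bp in the WT hearts. The lowest WT heart lay between edKO hearts. Slc25a39 and Slc25a40, both linked to mitochondrial glutathione, were marked in all hearts at their starts.

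Of 8 tested members with other or unsettled substrates, 4 were negative and 4 positive. The positive ones include Slc25a54, which has the peaks of Slc25a24, and Slc25a47, whose peaks cannot be assigned to it. Slc25a35, the close relative of Slc25a34, had 2147, 1450 and 2634 bp in the edKO hearts, against 2567, 2510 and 2356 bp in the WT hearts. The edKO hearts lay on both sides of the WT hearts, unlike those at Slc25a34. Its difference of -0.18 (SE 0.14, limma adjusted p = 0.859) turned to 0.41 with peaks of a −log10 q of at least 5. The difference between both relatives was not tested.

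Region by region, the members held 161 distinct regions of the union of all lists. Of these, 78 were called in all 6 hearts (48.4%, against 35.7% of the 77769 regions on chromosomes 1 to 19). A single heart called 49 (30.4%, against 32.3%). The region upstream of Slc25a42 was the 1 called in all WT hearts and no edKO heart, a pattern of 1.07% of all regions. No region at a member was called in all edKO hearts and no WT heart, a pattern of 0.072% of all regions. A heart counted as called here with 1 bp. Where it needed to cover at least 0.5 of the union region, 5 regions at members were called in all WT hearts and no edKO heart. Under that rule 0 were called in all edKO hearts and no WT heart. The shares of all regions under that rule are not given here, so the 5 cannot be set against them. For a single region, 3 hearts against 3 cannot go below an exact two-sided p of 0.1, and none was tested alone.

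Other mitochondrial transporters were set beside the family. Of 27 listed genes (the pyruvate carrier, the porins, sideroflexins, the calcium uniporter and its partners, ABC transporters, the carrier-like Mtch genes and uncoupling proteins), 26 were tested and 0 passed, with 12 negative differences and a median of 0.02. The brown fat gene Ucp1 had no called peak in any heart. The only one with an unadjusted p under 0.05 was Ucp3, the uncoupling protein of muscle and heart, which belongs to the same protein superfamily under another symbol. It had 6121, 5279 and 5409 bp in the edKO hearts, against 9029, 10220 and 12311 bp in the WT hearts, without overlap, and a difference of -0.79 (SE 0.163, limma adjusted p = 0.210). It did not pass.

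Carriers are brought into the inner membrane by the TOM complex, the small TIM chaperones and the TIM22 complex. All 12 listed genes of this route were marked and tested, and 0 passed. Of them 6 were negative, with a median of -0.03 and a range from -0.17 (Tomm40) to 0.14 (Timm9).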

How the data were processed

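H3K27ac ChIP-seq peak lists of 6 hearts (3 edKO, 3 WT) were used, and the 6 input samples were not used here. Per the submitters' processing notes the tools were cutadapt, BWA, SAMtools and MACS2 and the builds mm10 and GRCm38. Not given in the sources used here are versions, peak caller settings and any use of the inputs. The authors deposited 1 narrowPeak list per heart, called without pooling, with each peak's coordinates and summit. The deposited fold enrichment, a ratio, and the deposited −log10 p-values and −log10 q-values are the authors' own and served only to rank or filter within a list.

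Overlapping or touching entries were merged. Gene bodies came from a RefSeq table of GRCm38.p6 with 21887 protein-coding genes. Starts and sequences came from its promoter table, in which 31 members were matched by gene identifier. Covered bp within the body and 10 kb on each side were converted to log2(bp + 200). Each heart was then centred by its mean at those loci that had peaks in all 6 hearts. A locus needed a mean of at least 500 bp to be tested. limma 3.58.1 in R 4.3.3 was fitted with trend, robust empirical Bayes and genotype as the only term, and p-values were adjusted by Benjamini-Hochberg over all loci. The fit was tested on simulated data. Python 3.11.15, numpy 2.4.6, pandas 2.3.3 and matplotlib 3.10.9 were used.

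The members and lists were chosen with earlier results of these data known. Named members are the 4 with the smallest p in each direction, the 5 longest and 3 shortest covered lengths, those with no called region or a region of 1 genotype, and textbook members of heart, haem synthesis and testis with Slc25a34 and Slc25a35. Of the genes the rule takes, 1 is not reported here. Others are named only for their role, a shared window or a motif. Alternatives changed the window, the assignment to genes, the peak threshold, the scaling, the pseudocount, the filter, the block and the hearts.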

Additional observations from a re-analysis of the deposited data

How the results depend on the processing

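The count of 15 loci lower in edKO over all genes became 0 at the gene ends (1 kb on each side of both ends), 9 with regions assigned to the nearest gene only, 9 with a −log10 q of at least 5 and 6 with lists of equal length. With 1 heart left out it lay between 0 (without WT 3) and 9 (without edKO 6). The count of loci higher in edKO, 0 in the fit as reported, was 3 with the nearest gene only and 0 to 1 with 1 heart left out. The count of members past the threshold was 0 in all of these settings. Members with no called region were 6 over the gene body alone, 5 with 5 kb on each side, 7 at the gene ends and 7 with the nearest gene only. Regions called in all WT hearts and no edKO heart, 1 as reported, were 0 over the gene body or at the gene ends. They were 5 with at least 0.5 of the union region covered, and the share of all regions in that setting is not given. Regions called in all edKO hearts and no WT heart, 0 as reported, were 1 with lists of equal length. The numbers 1 and 3 occur in both genotypes, but no label says that they pair hearts. Deviations of same-numbered hearts correlated at 0.179 and 0.0316 across loci, against -0.244 to 0.143 for the other edKO and WT pairs. A replicate block gives each number its own level, and WT 4 and edKO 6 have no same-numbered heart of the other genotype. Their values are fully taken up by the block, so its differences come from hearts 1 and 3 of each genotype alone. With this block (1 residual degree of freedom) 90 loci were lower, and 2 members passed: Slc25a42 (-0.89, limma adjusted p = 0.0418) and Slc25a34 (-0.97, limma adjusted p = 0.0438). These calls are therefore not a comparison of all the hearts.

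Signs turned at small differences. Slc25a13 was -0.0050 over the body, -0.0036 with 5 kb, -0.025 at the gene ends, -0.082 without centring, -0.0092 with a pseudocount of 1000 bp and -0.036 to 0.073 with 1 heart left out. Slc25a25 was -0.0031 at the gene ends, -0.051 without centring, -0.19 with the block and -0.13 to 0.14 with 1 heart left out. Slc25a28 was 0.12 with the block and -0.14 to 0.072 with 1 heart left out. Slc25a24 and Slc25a54 were -0.00039 with the block, Slc25a3 was -0.0025 without centring, Slc25a38 -0.0063 and Slc25a11 -0.13 as given above, Slc25a12 0.0072 and 0.058, and Slc25a35 0.41. The cause was not tested. Slc25a42 and Slc25a34 were negative in all 18 alternatives, from -1.08 to -0.11 and from -1.62 to -0.83. The unknown depth limits what a missing region shows.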
